A study of Cucumis melo with 18 samples.

Results

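Carotenoid desaturase and isomerase genes carry out the steps between phytoene, the first carotenoid, and lycopene. The 7 genes described here were taken by identifier from a table of 22394 genes. They are 2 copies of PDS (MELO3C017772.2 and MELO3C020832.2), Z-ISO (MELO3C017709.2), ZDS (MELO3C024674.2) and 3 copies of CRTISO (MELO3C009571.2, MELO3C016373.2 and MELO3C016495.2). The symbols are those of the study. The study lists these genes as differentially expressed on the same libraries used here, above all between stages. Counts of members that changed were therefore in part fixed by that choice, and they are not independent evidence of a direction. RNA-seq counts were obtained from fruits of 2 inbred melon lines, “B-6”, whose flesh turns from green to white, and “B-14”, whose flesh turns from green to orange. Fruits of hand-pollinated greenhouse plants were taken at 10, 30 and 45 days after pollination (DAP), the last being maturity, with 3 biological replicates in each of 6 groups and 1 fruit per plant. The groups “1_6”, “3_6” and “4_6” are “B-6” at 10, 30 and 45 DAP, and “1_14”, “3_14” and “4_14” are “B-14” at the same stages. The labels name no treatment. Each flesh colour is represented by 1 line, so flesh colour and every other difference between these lines cannot be told apart.

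Total counts per library lay between 20651703 and 22675606, and the 7 genes had between 44 and 6748 counts in each library, so none was near the detection limit. All 7 passed the filter on low counts in every comparison. Tissue was flesh of the fruit by the study's methods and blade by the deposited labels. It could not be checked by marker genes, because the identifiers are paired with no descriptions in the sources used here. In bulk tissue, fewer cells of a type and less RNA per cell cannot be told apart.

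Phytoene is colourless. Phytoene desaturase (PDS) and zeta-carotene desaturase (ZDS) add double bonds in turn and pass the electrons to plastoquinone. As the chain of conjugated bonds lengthens, the product begins to absorb visible light. Plant desaturases leave some of these bonds in the cis form. Zeta-carotene isomerase (Z-ISO) acts between the desaturases, and carotenoid isomerase (CRTISO) turns the cis product of ZDS into all-trans-lycopene, the red carotenoid from which beta-carotene is made by lycopene cyclase. Loss of CRTISO gives the orange fruits of the tangerine mutant of tomato, and loss of Z-ISO blocks the pathway in dark-grown Arabidopsis seedlings. Plants also carry CRTISO-like genes whose products are less well characterised, and which of the CRTISO copies of melon encodes the isomerase of the pathway was not examined here.

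Levels are given as CPM, which are counts relative to library size with TMM scaling. Gene lengths were not at hand, so a level is compared only with levels of the same gene. A gene was called at a Benjamini-Hochberg adjusted p of at most 0.05 in edgeR's quasi-likelihood test, with adjustment over all genes tested in a comparison and no minimum fold. The 95% intervals of fold changes are not adjusted for multiple testing and can therefore leave out 0 where the adjusted p misses the threshold. How reads that match several genes were counted, and whether strand was used, is not given in the sources used here. Reads of near-identical copies could therefore have been split between them, and values of single PDS and CRTISO copies are uncertain to that extent.

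**Figure D1:**
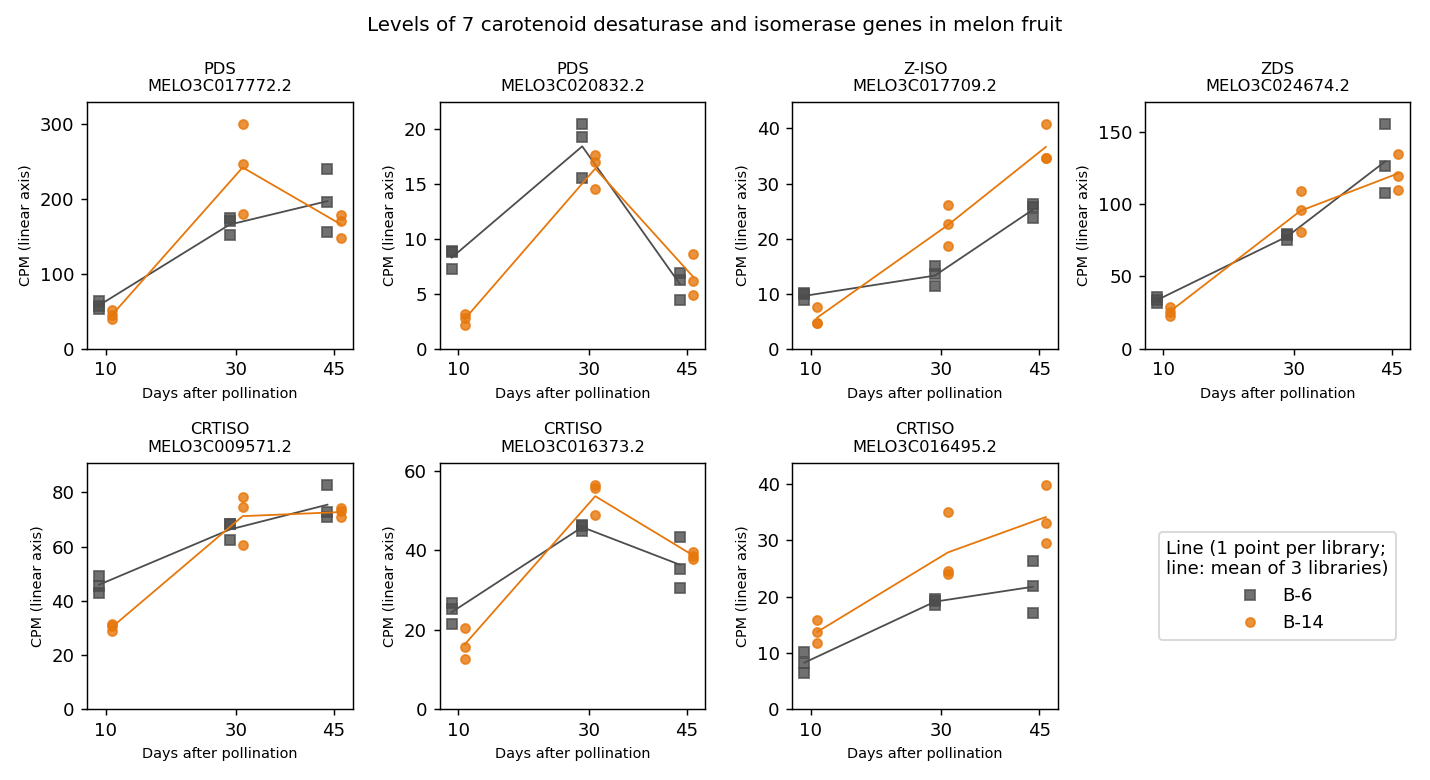
Level of each of the 7 genes (y axis, CPM, linear from 0, with its own scale in each panel) at 10, 30 and 45 DAP (x axis) in “B-6” (grey squares) and “B-14” (orange circles). Each point is 1 library and the lines join the means of 3 libraries. In “B-14”, all 7 genes were lowest at 10 DAP, and PDS MELO3C020832.2 peaked at 30 DAP in both lines.

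PDS carries out the first desaturation, and its 2 copies followed different courses. MELO3C017772.2 in “B-6” was at 57.3, 64.0 and 52.7 CPM at 10 DAP, 152, 171 and 175 CPM at 30 DAP and 239.8, 196 and 156 CPM at 45 DAP. Its levels in “B-14” were 44.8, 51.9 and 39.1 CPM, 300.2, 247 and 179.9 CPM and 179, 149 and 171 CPM at the same stages. All libraries of 10 DAP thus lay below all later ones, and the later libraries of the 2 lines overlapped in part. The gene rose 2.85-fold by 30 DAP in “B-6” (log2 fold change 1.51, standard error 0.10, adjusted p = 5.8e-06) and 5.59-fold in “B-14” (log2 fold change 2.48, standard error 0.22, adjusted p = 7.9e-05). At 45 DAP it was 3.40-fold and 3.86-fold above the same 10 DAP libraries. Between 30 and 45 DAP it did not pass the test in either line, with a log2 fold change of 0.29 in “B-6” (95% interval -0.09 to 0.67, adjusted p = 0.16) and of -0.53 in “B-14” (95% interval -0.98 to -0.08, adjusted p = 0.054). From high to low, the group means were in the order “3_14”, “4_6”, “4_14”, “3_6”, “1_6” and “1_14”, and the ranges of the first 4 groups overlapped from one to the next.

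The other PDS copy, MELO3C020832.2, peaked at 30 DAP in both lines. Its levels in “B-6” were 8.77, 8.84 and 7.23 CPM at 10 DAP, 20.4, 15.5 and 19.3 CPM at 30 DAP and 6.24, 6.87 and 4.43 CPM at 45 DAP. In “B-14” it began at 3.14, 2.11 and 2.83 CPM, stood at 16.9, 14.6 and 17.6 CPM at 30 DAP and ended at 4.90, 8.57 and 6.11 CPM. Each 30 DAP library was above all libraries of 10 and 45 DAP. The rise to 30 DAP was 2.21-fold in “B-6” (log2 fold change 1.14, standard error 0.15, adjusted p = 0.00021) and 6.31-fold in “B-14” (log2 fold change 2.66, standard error 0.19, adjusted p = 3.6e-05). It then fell 3.06-fold in “B-6” (log2 fold change -1.62, standard error 0.20, adjusted p = 0.0005) and 2.48-fold in “B-14” (log2 fold change -1.31, standard error 0.21, adjusted p = 0.0029). Against 10 DAP, the mature fruit of “B-14” was still 2.55-fold higher (log2 fold change 1.35, adjusted p = 0.0042), whereas in “B-6” the log2 fold change was -0.50 and did not pass the test (adjusted p = 0.068). This last value is close to the threshold, and DESeq2 gave it an adjusted p of 0.045. The order of group means was “3_6”, “3_14”, “1_6”, “4_14”, “4_6” and “1_14”. Ranges of “3_6” and “3_14” overlapped, and those of “1_6”, “4_14” and “4_6” overlapped from one to the next.

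Z-ISO, the isomerase between the desaturases, climbed through all 3 stages. In “B-6”, MELO3C017709.2 was at 10.0, 9.98 and 8.75 CPM at 10 DAP, 11.4, 14.9 and 13.5 CPM at 30 DAP and 23.8, 26.3 and 25.7 CPM at 45 DAP. In “B-14” it was at 4.73, 7.55 and 4.71 CPM, 26.1, 22.6 and 18.7 CPM and 34.6, 40.8 and 34.6 CPM. The stages did not overlap within either line, and “B-14” had both the lowest and the highest libraries. By 30 DAP the gene had risen 4.13-fold in “B-14” (log2 fold change 2.05, standard error 0.24, adjusted p = 0.00029) and 1.38-fold in “B-6” (log2 fold change 0.46, standard error 0.14, adjusted p = 0.018). The latter call was lost without “1_6” replicate 3, “3_6” replicate 2 or “3_6” replicate 3, which gave adjusted p-values of 0.055, 0.072 and 0.057. Z-ISO rose again from 30 to 45 DAP, 1.95-fold in “B-6” (log2 fold change 0.96, standard error 0.13, adjusted p = 0.00076) and 1.65-fold in “B-14” (log2 fold change 0.72, standard error 0.14, adjusted p = 0.0065), and was the 1 member that passed this test as higher in both lines. Over the whole period its rise was 2.63-fold in “B-6” and 6.80-fold in “B-14”. The order of group means was “4_14”, “4_6”, “3_14”, “3_6”, “1_6” and “1_14”, and only “4_6” and “3_14” overlapped among neighbours.

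ZDS, the second desaturase, also had its highest means at 45 DAP. MELO3C024674.2 was at 35.5, 33.3 and 31.9 CPM in “1_6”, at 75.4, 78.3 and 79.2 CPM in “3_6” and at 155, 126 and 107 CPM in “4_6”. In “B-14” it was at 28.8, 25.5 and 22.9 CPM at 10 DAP, 109, 95.9 and 81.0 CPM at 30 DAP and 135, 109.8 and 119 CPM at 45 DAP. The stages did not overlap within a line, and the mature groups of the 2 lines overlapped. ZDS rose 2.30-fold to 30 DAP in “B-6” (log2 fold change 1.20, standard error 0.08, adjusted p = 4.3e-06) and 3.86-fold in “B-14” (log2 fold change 1.95, standard error 0.15, adjusted p = 4.5e-05). It rose a further 1.71-fold to 45 DAP in “B-6” (log2 fold change 0.78, standard error 0.14, adjusted p = 0.0026). In “B-14” the same step had a log2 fold change of 0.36 (95% interval 0.05 to 0.67, adjusted p = 0.055), just short of the threshold. From 10 to 45 DAP the gene rose 3.86-fold in “B-6” and 4.94-fold in “B-14”. The group means ran “4_6”, “4_14”, “3_14”, “3_6”, “1_6” and “1_14”, and of these neighbours only “4_6” and “4_14” overlapped.

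The 3 CRTISO copies differed in the size of their change and in what happened after 30 DAP. MELO3C009571.2, with 45.9 ± 3.18 CPM (SD, n = 3) in “1_6” and 30.3 ± 1.34 CPM in “1_14”, varied least of the 7 genes, 2.49-fold from the lowest to the highest group mean. Its libraries were at 49.3, 45.5 and 43.0 CPM in “1_6”, 62.3, 68.2 and 68.2 CPM in “3_6” and 82.6, 72.8 and 70.8 CPM in “4_6”. In “B-14” they were at 30.8, 31.4 and 28.9 CPM, 78.3, 74.6 and 60.7 CPM and 74.1, 73.2 and 70.8 CPM from 10 to 45 DAP. The 10 DAP libraries were below all others, and the later groups overlapped from one to the next in the order “4_6”, “4_14”, “3_14” and “3_6”, followed by “1_6” and “1_14”. It rose 1.43-fold in “B-6” (log2 fold change 0.52, standard error 0.09, adjusted p = 0.00074) and 2.44-fold in “B-14” by 30 DAP (log2 fold change 1.29, standard error 0.12, adjusted p = 0.00012), and was 1.64-fold and 2.52-fold above 10 DAP at maturity. From 30 to 45 DAP its log2 fold change was 0.23 in “B-6” (adjusted p = 0.078) and 0.04 in “B-14” (95% interval -0.21 to 0.30, adjusted p = 0.75).

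MELO3C016373.2 was the CRTISO copy with its highest mean at 30 DAP. It was at 26.8, 25.2 and 21.4 CPM in “1_6”, 45.0, 46.2 and 46.3 CPM in “3_6” and 43.2, 35.4 and 30.4 CPM in “4_6”. In “B-14” it was at 20.5, 12.7 and 15.8 CPM, 55.6, 56.4 and 48.8 CPM and 38.7, 39.6 and 37.9 CPM at the same stages. In both lines every 30 DAP library exceeded every 45 DAP library, and those exceeded every 10 DAP library. The rise to 30 DAP was 1.86-fold in “B-6” (log2 fold change 0.90, standard error 0.10, adjusted p = 8.7e-05) and 3.42-fold in “B-14” (log2 fold change 1.77, standard error 0.18, adjusted p = 0.00017). The decline afterwards passed the test in “B-14” (1.37-fold, log2 fold change -0.46, standard error 0.08, adjusted p = 0.004) and not in “B-6” (log2 fold change -0.30, adjusted p = 0.093). At 45 DAP the gene remained 2.49-fold above 10 DAP in “B-14” and 1.49-fold in “B-6”, where the call was lost without “1_6” replicate 3 (adjusted p = 0.060). The order was “3_14”, “3_6”, “4_14”, “4_6”, “1_6” and “1_14”, with an overlap between “4_14” and “4_6” alone.

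MELO3C016495.2 was the member whose 10 DAP level was higher in “B-14”. It was at 10.2, 8.17 and 6.49 CPM in “1_6”, 18.5, 19.6 and 19.2 CPM in “3_6” and 26.3, 21.9 and 17.1 CPM in “4_6”. The “B-14” libraries were at 11.8, 15.8 and 13.7 CPM, 35.0, 24.6 and 24.0 CPM and 39.8, 29.5 and 33.1 CPM. At each stage all 3 libraries of “B-14” lay above all 3 of “B-6”. By 30 DAP it had risen 2.29-fold in “B-6” (log2 fold change 1.19, standard error 0.17, adjusted p = 0.00029) and 2.11-fold in “B-14” (log2 fold change 1.08, standard error 0.20, adjusted p = 0.0024). The 45 DAP level was 2.62-fold and 2.61-fold above 10 DAP, and the step from 30 DAP did not pass in “B-6” (adjusted p = 0.26) or in “B-14” (adjusted p = 0.19). The order was “4_14”, “3_14”, “4_6”, “3_6”, “1_14” and “1_6”, and the first 4 groups overlapped from one to the next.

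**Figure D2:**
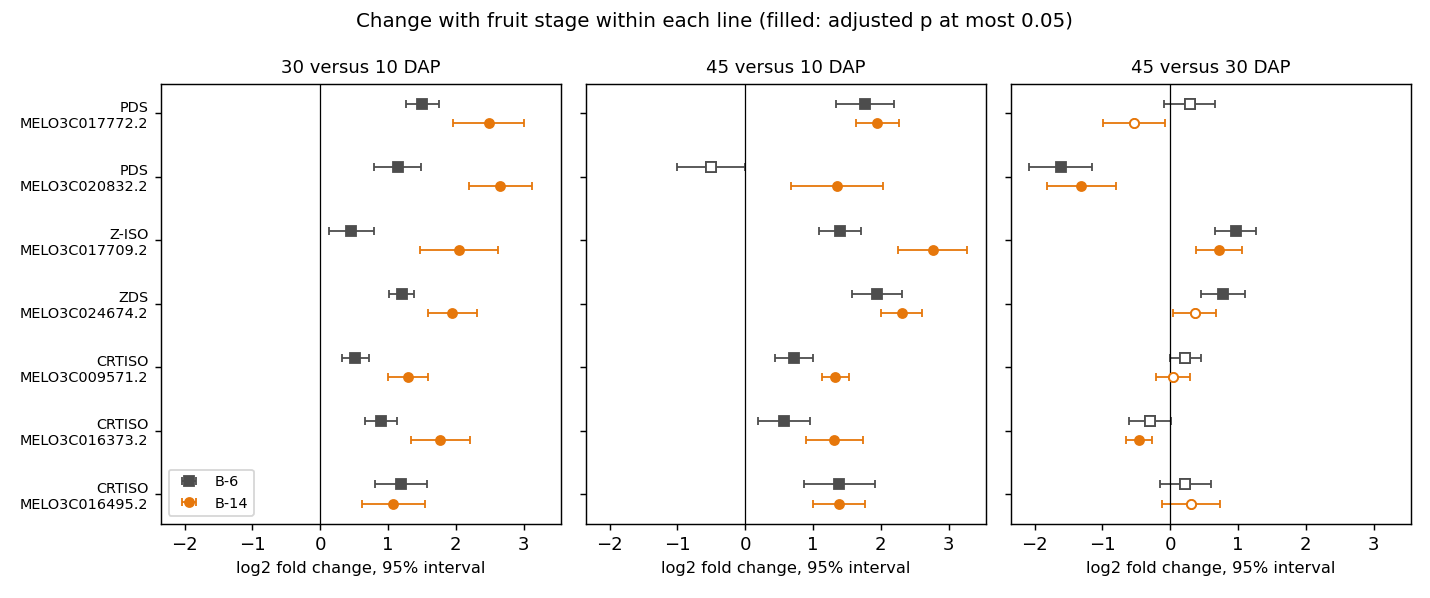
Log2 fold change between stages (x axis) for each gene (y axis), in “B-6” (grey squares) and “B-14” (orange circles), with 95% intervals from edgeR, unadjusted. Filled symbols passed an adjusted p of 0.05. All symbols of 30 versus 10 DAP are filled and positive, whereas 3 of 7 in each line are filled for 45 versus 30 DAP.

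The first question of the design is how these genes change as the fruit matures. In “3_6” versus “1_6”, 7 of 7 members rose, where 37.2% of all 16478 genes tested did. In “3_14” versus “1_14”, 7 of 7 rose and 33.5% of all genes did. Because these genes were listed for such changes in these libraries, nothing is read from how far their counts exceed those of all genes. The median log2 fold change of the members was 1.14 in “B-6” and 1.95 in “B-14”, beside 0.02 and -0.0020 over all genes tested. In “4_6” versus “1_6”, 6 of 7 rose, all but PDS MELO3C020832.2, with 34.3% of all genes rising. In “4_14” versus “1_14”, 7 of 7 rose, with 34.8% of all genes rising. The medians were 1.39 and 1.38. The 30 and 45 DAP comparisons of a line share their 10 DAP libraries and are not independent of each other.

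From 30 to 45 DAP the members no longer moved together. In “4_6” versus “3_6”, Z-ISO and ZDS rose and PDS MELO3C020832.2 fell, beside 29.6% of all genes higher and 29.3% lower. In “4_14” versus “3_14”, Z-ISO rose, and PDS MELO3C020832.2 and CRTISO MELO3C016373.2 fell, beside 25.5% higher and 25.9% lower. The members called numbered 3 of 7 in each line. The median log2 fold changes of the members were 0.23 in “B-6” and 0.04 in “B-14”. Single members ranged from -1.62 to 0.96 in “B-6” and from -1.31 to 0.72 in “B-14”. The medians of all genes, which TMM scaling keeps near 0, were 0.02 and -0.0048. Without “4_6” replicate 3 the count in “B-6” was 5. Without “3_14” replicate 1 the count in “B-14” was 5, and with DESeq2 or with 1 fit of all 18 libraries it was also 5. With single libraries left out, counts over all genes ranged from 7241 to 10162 in “B-6” and from 6477 to 7600 in “B-14”. With all libraries of a comparison they were 9129 and 8020. No change in the count of members is read as a result about them.

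**Figure D3:**
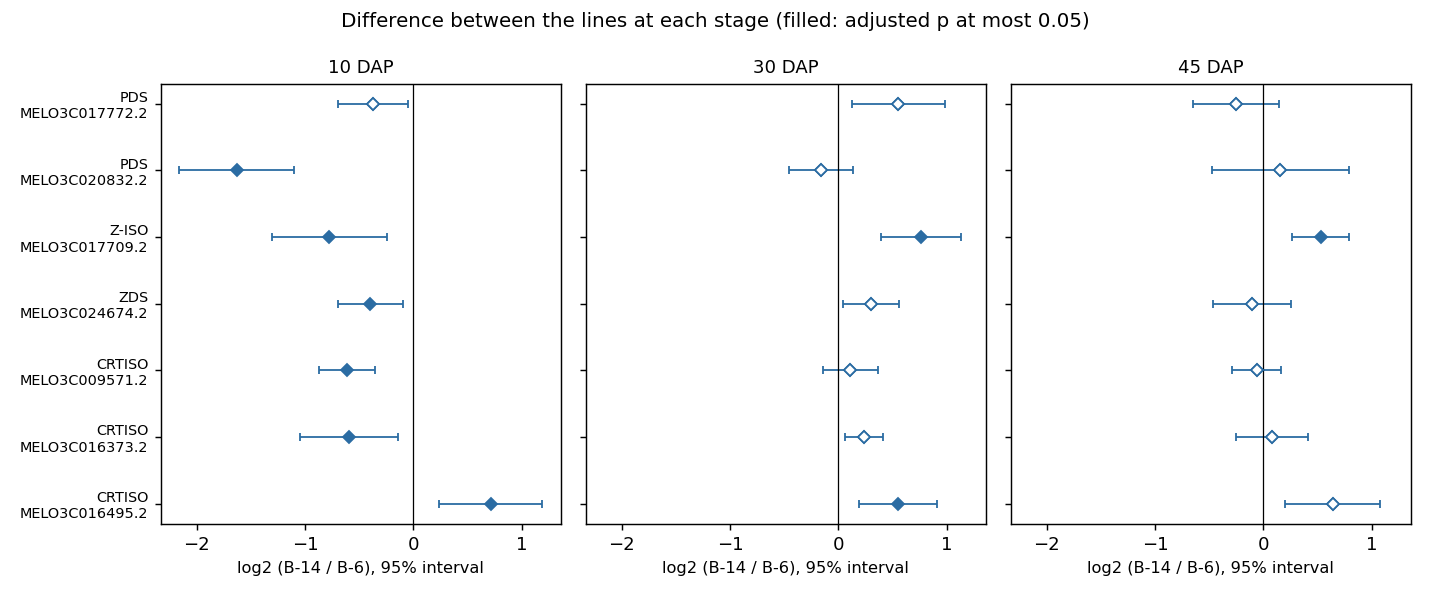
Log2 fold change of “B-14” against “B-6” (x axis) for each gene (y axis) at 10, 30 and 45 DAP, with unadjusted 95% intervals from edgeR. Positive values are higher in “B-14” and filled symbols passed an adjusted p of 0.05. The filled symbols are 5 negative and 1 positive at 10 DAP, 2 positive at 30 DAP and 1 positive at 45 DAP.

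The second question is how the orange-fleshed line differs from the white-fleshed line. At 10 DAP most of these genes were lower in “B-14”. In “1_14” versus “1_6”, 5 of 7 members were lower, against 23.8% of all genes, and 1 was higher, against 25%. The study lists PDS MELO3C020832.2 as lower in this same comparison, so the count was in part fixed by the choice of genes. How far the count exceeds that of all genes is therefore not read as a result. The lower members were PDS MELO3C020832.2 (3.10-fold, log2 fold change -1.63, standard error 0.23, adjusted p = 0.00078), CRTISO MELO3C009571.2 (1.53-fold, log2 fold change -0.61, adjusted p = 0.0025), Z-ISO (1.71-fold, log2 fold change -0.78, adjusted p = 0.024), CRTISO MELO3C016373.2 (1.51-fold, log2 fold change -0.59, adjusted p = 0.036) and ZDS (1.32-fold, log2 fold change -0.40, adjusted p = 0.035). CRTISO MELO3C016495.2 was 1.64-fold higher (log2 fold change 0.71, standard error 0.21, adjusted p = 0.022). PDS MELO3C017772.2, with a log2 fold change of -0.37, did not pass the test (adjusted p = 0.056). The groups did not overlap for any of the 7 genes, but the share of all genes without overlap was not computed. In this comparison 48.8% of all genes were called in either direction. Nothing particular to the members is therefore read from the lack of overlap. Only the calls of PDS MELO3C020832.2 and CRTISO MELO3C009571.2 held whichever library was left out. The members called numbered 2 without “1_14” replicate 3 or “1_6” replicate 2 and 3 without “1_6” replicate 1. With single libraries left out, counts over all genes ranged from 6376 to 7690, against 8065 with all libraries of the comparison. With library size alone in place of TMM the count of members was 3, and the calls of Z-ISO, ZDS and CRTISO MELO3C016373.2 were lost. The TMM factors of “1_6” were 0.983, 0.893 and 0.857 and those of “1_14” 0.961, 0.965 and 0.952, so the size of the difference at 10 DAP depends on the scaling, while the direction of no member did.

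At 30 DAP the members that passed the test were higher in “B-14”. In “3_14” versus “3_6”, 2 of 7 were higher, Z-ISO (1.70-fold, log2 fold change 0.76, standard error 0.15, adjusted p = 0.018) and CRTISO MELO3C016495.2 (1.46-fold, log2 fold change 0.55, standard error 0.15, adjusted p = 0.047), where 10% of all genes were higher. PDS MELO3C017772.2 had a log2 fold change of 0.55 (95% interval 0.12 to 0.98, adjusted p = 0.076) and ZDS one of 0.30 (adjusted p = 0.097). PDS MELO3C020832.2, at -0.16, was the 1 member with a negative value (95% interval -0.46 to 0.14). These counts rest on single libraries, and the count over all genes, 2973 in either direction, moved with them. Without “3_14” replicate 3, 6 members and 4692 genes were called. Without “3_6” replicate 2, 1 member and 1749 genes were called. The members called numbered 0 without “3_14” replicate 2, “3_6” replicate 1 or “3_6” replicate 3, where 1768, 1434 and 1230 genes were called.

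At 45 DAP 1 of 7 members passed the test between the lines, a share near the 16% of all genes that passed it in either direction. Z-ISO was 1.44-fold higher in “4_14” than in “4_6” (log2 fold change 0.53, standard error 0.11, adjusted p = 0.022), where 7.86% of all genes were higher. This call was lost without any single library of “4_14” or without “4_6” replicate 2, with adjusted p-values from 0.059 to 0.068, and without “4_6” replicate 1 the count of members was 2. CRTISO MELO3C016495.2 had a log2 fold change of 0.64 (95% interval 0.20 to 1.08) and an adjusted p of 0.057, and DESeq2 gave 0.019. For the other 5 members the groups overlapped. The 95% intervals of their log2 differences were -0.65 to 0.14 for PDS MELO3C017772.2, -0.48 to 0.79 for PDS MELO3C020832.2, -0.47 to 0.26 for ZDS, -0.29 to 0.16 for CRTISO MELO3C009571.2 and -0.25 to 0.41 for CRTISO MELO3C016373.2. The widest of these was that of PDS MELO3C020832.2.

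Whether a gene changed more in one line than in the other was tested as a line-by-stage interaction, given as the log2 change in “B-14” less that in “B-6”. From 10 to 30 DAP, 6 of 7 members had a larger rise in “B-14”, where 18.9% of all genes had a positive interaction. It was 1.55 for Z-ISO (standard error 0.28, adjusted p = 0.0013), 1.48 for PDS MELO3C020832.2 (adjusted p = 0.00055), 0.94 for PDS MELO3C017772.2 (adjusted p = 0.011) and 0.71 for ZDS (adjusted p = 0.0057). The CRTISO copies MELO3C016373.2 and MELO3C009571.2 had 0.84 and 0.74 (adjusted p = 0.009 and 0.0024). CRTISO MELO3C016495.2 was the exception, at -0.15 (95% interval -0.74 to 0.43, adjusted p = 0.69). These interactions use the 10 DAP libraries of the line comparison above and so repeat part of it. The study lists Z-ISO and CRTISO MELO3C009571.2 and MELO3C016373.2 for changes between stages in “B-14” and not in “B-6”. A larger rise in “B-14” was thus in part fixed by that choice. Nothing is read from how far the count of members exceeds that of all genes. All 6 calls held without any single library.

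From 10 to 45 DAP the interaction passed for 3 of 7 members, against 16.9% of all genes with a positive one. These were PDS MELO3C020832.2 (1.78, standard error 0.36, adjusted p = 0.0027), Z-ISO (1.30, standard error 0.24, adjusted p = 0.0018) and CRTISO MELO3C009571.2 (0.55, standard error 0.14, adjusted p = 0.0084). CRTISO MELO3C016373.2 was at 0.67 with an adjusted p of 0.052, and 5 of the alternatives that left out no library, DESeq2 among them, brought it past the threshold. PDS MELO3C017772.2 and ZDS, at 0.11 and 0.29, were not called. The 3 calls held without any single library. For changes from 10 to 45 DAP the study also lists PDS MELO3C020832.2 and ZDS in “B-14” and not in “B-6”. In the counts used here ZDS rose 3.86-fold in “B-6” over that period. PDS MELO3C020832.2 is listed as lower in “B-14” at 10 DAP as well, the stage these interactions start from. The choice of genes limits the count of these calls in the same way, and their positive values were in part fixed by it. From 30 to 45 DAP edgeR called 0 of 7 members, beside 16.6% of all genes in either direction. PDS MELO3C017772.2, at -0.79 (95% interval -1.37 to -0.20), was the 1 member with an unadjusted p under 0.05 (adjusted p = 0.064), and DESeq2 called it. It was also called without “3_14” replicate 3 or “4_6” replicate 3.

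**Figure D4:**
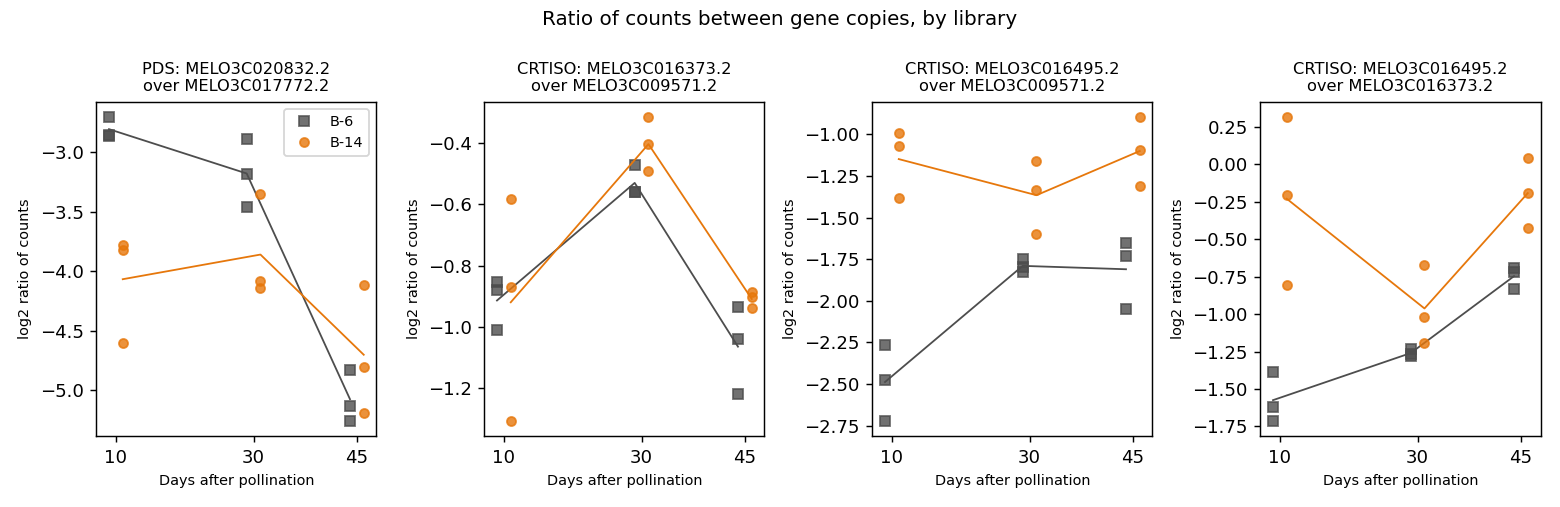
Log2 ratio of counts between 2 copies within a library (y axis) at 10, 30 and 45 DAP (x axis) in “B-6” (grey squares) and “B-14” (orange circles), 1 point per library, with lines through the means of 3. In both panels with MELO3C016495.2 as the numerator, the “B-14” libraries lie above the “B-6” libraries of the same stage. The PDS ratio falls from 30 to 45 DAP in both lines.

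Comparing copies within a library needs no scaling between libraries, and a change of their ratio between groups does not depend on gene length. The value of the ratio itself is not per length and is not a ratio of transcripts. The 4 pairs of copies gave 16 tests, each an exact two-sided permutation test over libraries within line or within stage, with p-values adjusted over the 16. For every 100 counts of PDS MELO3C017772.2, PDS MELO3C020832.2 had 14.3 ± 0.890 counts (SD, n = 3) in “1_6”, 11.2 ± 2.21 in “3_6” and 2.99 ± 0.465 in “4_6”. In “B-14” it had 6.16 ± 1.77, 7.12 ± 2.33 and 4.03 ± 1.57. The mean of this ratio was thus lowest in mature fruit of both lines. Over both lines the log2 ratio fell by 1.45 from 10 to 45 DAP (exact permutation adjusted p = 0.023) and by 1.37 from 30 to 45 DAP (exact permutation adjusted p = 0.023). Within “B-6” these falls were 2.27 and 1.90 without overlap of the stages, and within “B-14” 0.63 and 0.84 with overlap. Both calls were lost without “4_14” replicate 1 (adjusted p = 0.057 and 0.053). The difference between lines, -0.52 over all stages, did not pass the test (exact permutation adjusted p = 0.098), and its sign differed between stages, at -1.26 at 10 DAP, -0.68 at 30 DAP and 0.37 at 45 DAP. Without “4_14” replicate 2 it was -0.62 and passed the test (adjusted p = 0.021).

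Among the CRTISO copies, MELO3C016373.2 gained on MELO3C009571.2 to 30 DAP and lost the gain by maturity. For every 100 counts of MELO3C009571.2 it had 53.2 ± 3.01, 69.3 ± 2.48 and 48.0 ± 4.71 counts at the 3 stages in “B-6” and 54.0 ± 13.2, 75.7 ± 4.65 and 53.3 ± 1.01 in “B-14”. The log2 ratio rose by 0.45 to 30 DAP and fell by 0.52 to 45 DAP, and in each line these stages did not overlap (exact permutation adjusted p = 0.016 for both, from the smallest p of 0.005 that 400 permutations allow). The ratio of this pair did not differ detectably between the lines (log2 difference 0.09, exact permutation adjusted p = 0.35), except without “1_14” replicate 2 (0.16, adjusted p = 0.013).

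MELO3C016495.2 took a larger share in “B-14”. For every 100 counts of MELO3C009571.2 it had 17.98 ± 2.82 in “1_6” and 45.4 ± 6.31 in “1_14”, 28.9 ± 0.758 in “3_6” and 39.1 ± 5.84 in “3_14”, and 28.7 ± 4.04 in “4_6” and 47.0 ± 6.68 in “4_14”. The libraries of the lines did not overlap at any stage. The log2 ratio was 0.82 higher in “B-14” over the 3 stages (exact permutation p = 0.00025, the smallest that 8000 permutations allow, adjusted p = 0.002), and the stage values were 1.34, 0.42 and 0.71. Against MELO3C016373.2 the ratio was 0.73 higher in “B-14” (exact permutation adjusted p = 0.002), again without overlap at any stage, with stage values of 1.35, 0.30 and 0.55. This ratio also rose from 30 to 45 DAP, by 0.64 over both lines (exact permutation adjusted p = 0.016), by 0.51 in “B-6” and by 0.77 in “B-14”. These 2 pairs share MELO3C016495.2, and the 3 CRTISO ratios are not independent of each other. Both line differences held without any single library.

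The steps before and after were set beside the 7 genes. Phytoene synthase makes phytoene, and its copy PSY MELO3C025102.2 rose from 10 DAP in both lines with larger fold changes than any member. Its log2 fold change to 30 DAP was 2.13 in “B-6” (adjusted p = 1.3e-06) and 5.47 in “B-14” (adjusted p = 8e-06), and to 45 DAP it was 2.43 and 5.87. At 10 DAP it was 6.45-fold lower in “B-14” (log2 fold change -2.69, adjusted p = 2.7e-05), the same direction as the 5 lower members. At 30 and 45 DAP this log2 difference was positive, at 0.61 (95% interval 0.15 to 1.06) and 0.69 (95% interval 0.22 to 1.16). Neither passed edgeR's test (adjusted p = 0.070 and 0.057). Its line-by-stage interactions from 10 DAP were 3.31 to 30 DAP and 3.37 to 45 DAP, and both passed. The study's other copy, PSY MELO3C016185.2, rose on the log2 scale by 1.38 in “B-6” (adjusted p = 0.0061) and 0.99 in “B-14” (adjusted p = 0.018) to 30 DAP. To 45 DAP it changed by 1.11 in “B-6” (adjusted p = 0.020) and -0.21 in “B-14” (adjusted p = 0.58). Its difference between lines was 0.44 at 10 DAP (adjusted p = 0.41) and -0.95 at 45 DAP (adjusted p = 0.031). LCY1 MELO3C020744.2, lycopene cyclase, rose by 0.93 and 1.39 on the log2 scale to 30 DAP and by 1.32 and 1.20 to 45 DAP in “B-6” and “B-14”. At 10 DAP its difference between lines was -0.09 (95% interval -0.37 to 0.19, adjusted p = 0.58), a value whose sign changed with library size alone as the scaling. The interaction of LCY1 from 30 to 45 DAP was -0.58 (edgeR adjusted p = 0.026). It passed in 7 of the 12 fits that left out 1 library.

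A list of 18 other carotenoid genes was counted in the same comparisons. It holds the genes that the study's text supplement lists for carotenoid biosynthesis, or that its text names as such with an identifier. Both PSY copies and LCY1 are among them. Genes given in the supplement only with PCR primers were left out. The study reports more carotenoid genes than this list and the members hold. It chose these genes on these samples, as it did the members, so the counts of the list are not independent evidence of a direction. In “B-6”, 10 of 18 rose and 7 fell from 10 to 30 DAP, beside 37.2% and 37.4% of all genes. Equally many did so from 10 to 45 DAP, beside 34.3% and 35.6%. In “B-14”, 9 of 17 tested rose and 2 fell from 10 to 30 DAP, beside 33.5% and 35.2%. From 10 to 45 DAP 6 rose and 6 fell, near the 34.8% and 36.8% of all genes. In each of these 4 comparisons the list held genes moving in both directions. It includes genes that use carotenoids, such as the NCED dioxygenases of abscisic acid synthesis and CCD4, a carotenoid cleavage dioxygenase. AAO2, AAO3, ABA2 and CYP707A2 are also in the list, and their names in the study give substrates other than carotenoids. The counts are therefore not those of carotenoid-converting enzymes alone. At 10 DAP, 2 were higher and 11 lower in “B-14” of 18, beside 25% and 23.8% of all genes. At 30 DAP 2 of 17 were higher and 2 lower, beside 10% and 9.15%. At 45 DAP 1 of 17 was higher and 3 were lower, beside 7.86% and 8.12%. From 30 to 45 DAP, 5 of 17 rose and 5 fell in “B-6”, beside 29.6% and 29.3%. In “B-14” 3 of 17 rose and 8 fell, beside 25.5% and 25.9%. Interactions were positive for 10 of 18 and negative for 3 from 10 to 30 DAP, beside 18.9% and 20% of all genes. From 10 to 45 DAP they were positive for 9 of 18 and negative for 3, beside 16.9% and 20.3%. From 30 to 45 DAP they were positive for 3 and negative for 5 of 17, beside 7.7% and 8.88%.

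The likeness of patterns was measured as the root mean square difference between the 6 group means of log2 CPM, each gene centred on its own mean. All groups come from the same 18 libraries, and the values are a description. CRTISO MELO3C009571.2 and MELO3C016373.2 were the closest pair of members, at 0.24. Z-ISO and ZDS differed by 0.29, and PDS MELO3C017772.2 and ZDS also by 0.29. PDS MELO3C017772.2 was thus nearer to ZDS, the other desaturase, than to its own second copy, from which it differed by 0.79. The largest distance between members was 1.05, between PDS MELO3C020832.2 and Z-ISO, and the nearest member to this PDS copy was CRTISO MELO3C016373.2, at 0.54. CRTISO MELO3C016495.2 was 0.48 from MELO3C009571.2, its nearest member. The median distance of a member to all other genes lay between 0.74 and 1.11. Of the other carotenoid genes, LCY1 was nearest to all 3 CRTISO copies (0.21, 0.28 and 0.36 for MELO3C009571.2, MELO3C016373.2 and MELO3C016495.2) and to Z-ISO (0.50). CYP97C1, a carotene hydroxylase, was nearest to both PDS copies (0.26 and 0.70), and GGPS, which makes the precursor of phytoene, to ZDS (0.34). Many genes of the table lay closer still. Of 17436 other genes, those nearer than the nearest member numbered 140 for PDS MELO3C017772.2, 382 for PDS MELO3C020832.2, 39 for Z-ISO and 169 for ZDS. For the CRTISO copies they numbered 550 for MELO3C009571.2, 220 for MELO3C016373.2 and 2026 for MELO3C016495.2.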

How the data were processed

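The authors trimmed paired reads of stranded mRNA libraries with Trimmomatic, aligned them to a melon reference genome with HISAT2 and used the DESeq package. The deposited table holds whole-number counts per gene, without normalization. The genome build, the counting program and its handling of strand and of reads matching several genes are not given in the sources used here. Of 22394 identifiers, 0 were found among 28628 genes of a RefSeq table, so positions and sequences were not used here.

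Group and replicate came from the labels. Each pair of groups (9 comparisons, 6 libraries each) was fitted in R 4.3.3 with edgeR 4.0.16 (TMM, filterByExpr, quasi-likelihood F test, Benjamini-Hochberg over all genes), and 3 line-by-stage interactions on 12 libraries each. A standard error is the log2 fold change divided by the root of F. Copy ratios used counts plus 0.5 and exact permutation tests (Python 3.11.15). Likeness was computed over 17437 genes kept by filterByExpr on 18 libraries. Scripts were tested on simulated data. Alternatives were other scaling, other filters, DESeq2 1.42.0, 1 fit of all libraries, another threshold, a replicate block and leaving out each library. The 7 genes and the list of 18 were chosen with earlier results of these data known, and all 7 are named. The PSY copies MELO3C025102.2 and MELO3C016185.2 and LCY1 are named as the steps before and after. Counts of 29.0 to 65.7% of genes differed beyond binomial sampling in each pair of replicates, so no library repeated another.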

Additional observations from a re-analysis of the deposited data

Results flagged for a closer look

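Results whose size differed between the lines by a test of the difference are given here, each as the log2 change in “B-14” less that in “B-6”. From 10 to 30 DAP the difference passed for PDS MELO3C017772.2 (0.94), PDS MELO3C020832.2 (1.48), Z-ISO (1.55), ZDS (0.71), CRTISO MELO3C009571.2 (0.74) and CRTISO MELO3C016373.2 (0.84). From 10 to 45 DAP it passed for PDS MELO3C020832.2 (1.78), Z-ISO (1.30) and CRTISO MELO3C009571.2 (0.55). Each rests on edgeR's quasi-likelihood test over 12 libraries with an adjusted p of at most 0.05, and both sets use the same 10 DAP libraries. The study lists Z-ISO, CRTISO MELO3C009571.2 and CRTISO MELO3C016373.2 for stage changes in “B-14” and not in “B-6”. From 10 to 45 DAP it also lists PDS MELO3C020832.2 and ZDS in “B-14” and not in “B-6”. The positive differences of all these genes were in part fixed by that choice. Groups of 3 libraries were not tested for single outlying samples.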

How the results depend on the processing

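Of 904 recomputed gene values that had passed the test, 0 changed sign and 43 lost the call. Among the values that had not passed, 60 gained a call. Another 18 values, all uncalled, changed sign. The causes of the changes below were not tested. Where a count of members stands without an all-gene count, nothing is read from it about the members. Under a threshold of unadjusted p of at most 0.05 and at least 2-fold, 4 members were called in “B-6” and 7 in “B-14” from 10 to 30 DAP, 1 in “B-6” and 1 in “B-14” from 30 to 45 DAP, and 1, 0 and 0 between the lines at 10, 30 and 45 DAP. Under it, all-gene counts fell from 12286 to 7041 in “B-6” and from 11354 to 7048 in “B-14” (10 to 30 DAP), from 11856 to 7549 in “B-14” (10 to 45 DAP), from 9129 to 4310 and from 8020 to 3120 (30 to 45 DAP), and from 8065 to 4498 and 2973 to 1090 between the lines at 10 and 30 DAP. From 30 to 45 DAP in “B-14”, DESeq2 and 1 fit of all 18 libraries each called 5 members. Between the lines at 30 DAP, 1 fit of all libraries called 1 member and 1543 genes. At 45 DAP, DESeq2, 1 fit of all libraries and library size alone each called 2 members, and the first 2 called 3717 and 4102 genes against 2458. At 10 DAP, library size alone called 3 members and changed the sign of LCY1 to 0.0031. DESeq2 called 1 member in the interaction of 45 versus 30 DAP. Of the other carotenoid genes, that threshold left 6 in “B-14” from 30 to 45 DAP and 2 between the lines at 30 DAP, where DESeq2 called 7 and 1 fit of all libraries 2. At 45 DAP that fit called 7.

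Replicate numbers did not pair the samples. Correlations of same-numbered deviations ran from -0.33 to 0.32, and in 0 of 9 comparisons were all above 0.1. With the replicate block, 6 members were called in “B-14” from 30 to 45 DAP, and 0 (with 1293 genes) and 2 between the lines at 30 and 45 DAP. No all-gene counts stand beside the 6 and the 2, so nothing is read from them about the members. In sign-flip tests with the block, whose smallest p is 0.0312 for a stage contrast, 5 copy-ratio changes kept their values and no longer passed, namely PDS at -1.45 (45 versus 10 DAP) and -1.37 (45 versus 30 DAP), MELO3C016373.2 over MELO3C009571.2 at 0.45 and -0.52, and MELO3C016495.2 over MELO3C016373.2 at 0.64. After adjustment over the 16 tests, that smallest p became an adjusted p of 0.083 in these sign-flip tests. The loss of these calls was thus largely fixed by the few possible flips, and nothing is read from it.

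With each library left out in turn, members called ranged from 3 to 5 in each line from 30 to 45 DAP, from 2 to 5, 0 to 6 and 0 to 2 between the lines at 10, 30 and 45 DAP, and from 0 to 1 in the interaction of 45 versus 30 DAP. In the last 3, all-gene counts ranged from 1230 to 4692, 896 to 4236 and 1540 to 4493, and other carotenoid genes from 3 to 7, 3 to 6 and 3 to 9. From 30 to 45 DAP, all-gene counts ranged from 7241 to 10162 in “B-6” and from 6477 to 7600 in “B-14”. Between the lines at 10 DAP they ranged from 6376 to 7690. Copy ratios ranged from -1.60 to -1.33, -1.52 to -1.24 and -0.62 to -0.43 for PDS (45 versus 10 DAP, 45 versus 30 DAP, lines), -0.17 to 0.014 and 0.036 to 0.16 for MELO3C016373.2 over MELO3C009571.2 (45 versus 10 DAP, lines), and 0.29 to 0.57 for MELO3C016495.2 over MELO3C016373.2 (45 versus 10 DAP). The gene values that changed sign ranged from -0.066 to 0.11 for MELO3C009571.2 in “B-14” from 30 to 45 DAP. Between the lines at 45 DAP they ranged from -0.088 to 0.33 for PDS MELO3C020832.2, -0.23 to 0.052 for ZDS, -0.11 to 0.015 for MELO3C009571.2 and -0.033 to 0.23 for MELO3C016373.2. Interactions ranged from -0.36 to 0.0060 (30 versus 10 DAP), -0.25 to 0.078 (45 versus 10 DAP) and -0.033 to 0.30 (45 versus 30 DAP) for MELO3C016495.2, and in the last also from -0.24 to 0.0073 for MELO3C016373.2 and -0.039 to 0.36 for PSY MELO3C025102.2.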
